A study of Homo sapiens with 2 samples.

Results

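The genes described here encode the cyclins, the cyclin-dependent kinases (CDKs), the CDK inhibitors and the E2F and retinoblastoma proteins that control passage through the cell cycle, with a few regulators of their activity and turnover. They were taken by gene name from a list of 40 symbols, and all 40 were found among the 58735 genes of the deposited table. RNA-seq was done on SUIT-2 cells, a human pancreatic adenocarcinoma line, here in a derivative described as highly metastatic. One library came from cells treated with dihydroartemisinin (label DHA), the active metabolite of the artemisinin antimalarials, and 1 from cells with the treatment label NC, which the design text describes as untreated. No genotype or strain differed between them, and no dose, exposure time or vehicle is stated in the labels. The series title links the comparison to a prognostic signature of DHA in pancreatic cancer.

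In the textbook scheme, D-type cyclins with CDK4 or CDK6 begin to phosphorylate the retinoblastoma protein, which releases E2F factors from repression. E2F with a DP partner then activates genes of S phase, including those of the E- and A-type cyclins that work with CDK2, and B-type cyclins with CDK1 drive mitosis. INK4 proteins inhibit CDK4 and CDK6, CIP/KIP proteins bind a wider set of cyclin-CDK complexes, and many of these regulators are controlled at the protein level as well as by transcription.

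The DHA library held 14521101 counted reads and the NC library 15452609. With 1 library per group, every difference below is between these 2 libraries and has no replicate check, and intervals cover counting error only. Levels are CPM, counts scaled to library size after TMM normalization, which equalizes most genes between libraries. The ratio is DHA over NC on the log2 scale, so a negative value means lower in the DHA library. A gene was called if either library had 50 reads or more, the levels differed 2-fold or more and the 95% counting interval did not hold 0. This is a rule of size and not a test. The label of the cells was compared with marker genes. All 7 pancreatic ductal epithelial markers had reads in both libraries, with summed levels of 1312 CPM (DHA) and 3326 CPM (NC). KRT8, KRT18 and KRT19 gave most of this. KRT7 was under the minimum, with 26 reads (DHA) and 49 reads (NC). The 6 markers with at least 50 reads in a library were all called lower, beside 10.3% of all genes at that minimum. Among them, CDH1 had 23 reads (DHA) and 933 reads (NC), and MUC1 had 29 reads (DHA) and 147 reads (NC). An extraction note names retina, but retina markers summed to 4.39 CPM (DHA) and 5.91 CPM (NC). Most of this came from OPN1SW with 49 reads (DHA) and 61 reads (NC), and GNAT1, CRX, RCVRN and SAG were at 0 in both libraries. Of 10 fibroblast, leukocyte and endothelial markers, 6 were at 0 in both libraries, including PTPRC, DCN and CDH5, and the list summed to 4.73 CPM (DHA) and 25.01 CPM (NC), mostly from PECAM1 with 54 reads (DHA) and 280 reads (NC). The part of these marker differences in the cell-cycle values was not tested.

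Among the 40 genes, 38 had at least 50 reads, and each of the 38 passed that minimum in both libraries, with 52 reads as the lowest count. Of these 38, 4 were called lower in the DHA library (E2F2, E2F8, CDKN2C and CCNE2) and 1 was called higher (CDK7). Lower calls thus made up 10.5% of the 38, beside 10.3% of all 12064 genes with at least 50 reads, and higher calls 2.63%, beside 6.72%. The count of calls past 2-fold was therefore close to the background on the lower side. At 1.5-fold, 11 of the 38 (28.9%) were lower and 3 (7.89%) higher, against 19.2% and 18.9% of all genes. The median log2 ratio was -0.40 over the 38 and 0.04 over all genes, and 30 of the 38 (78.9%) had a ratio below 0, against 47.8% of all genes. The interval lay wholly below 0 for 22, wholly above 0 for 6, and held 0 for the other 10, while of all 12064 genes 4288 lay wholly below 0 and 4801 wholly above. In bulk RNA, fewer cells in a given phase of the cycle and less RNA per cell cannot be told apart.

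**Figure D1:**
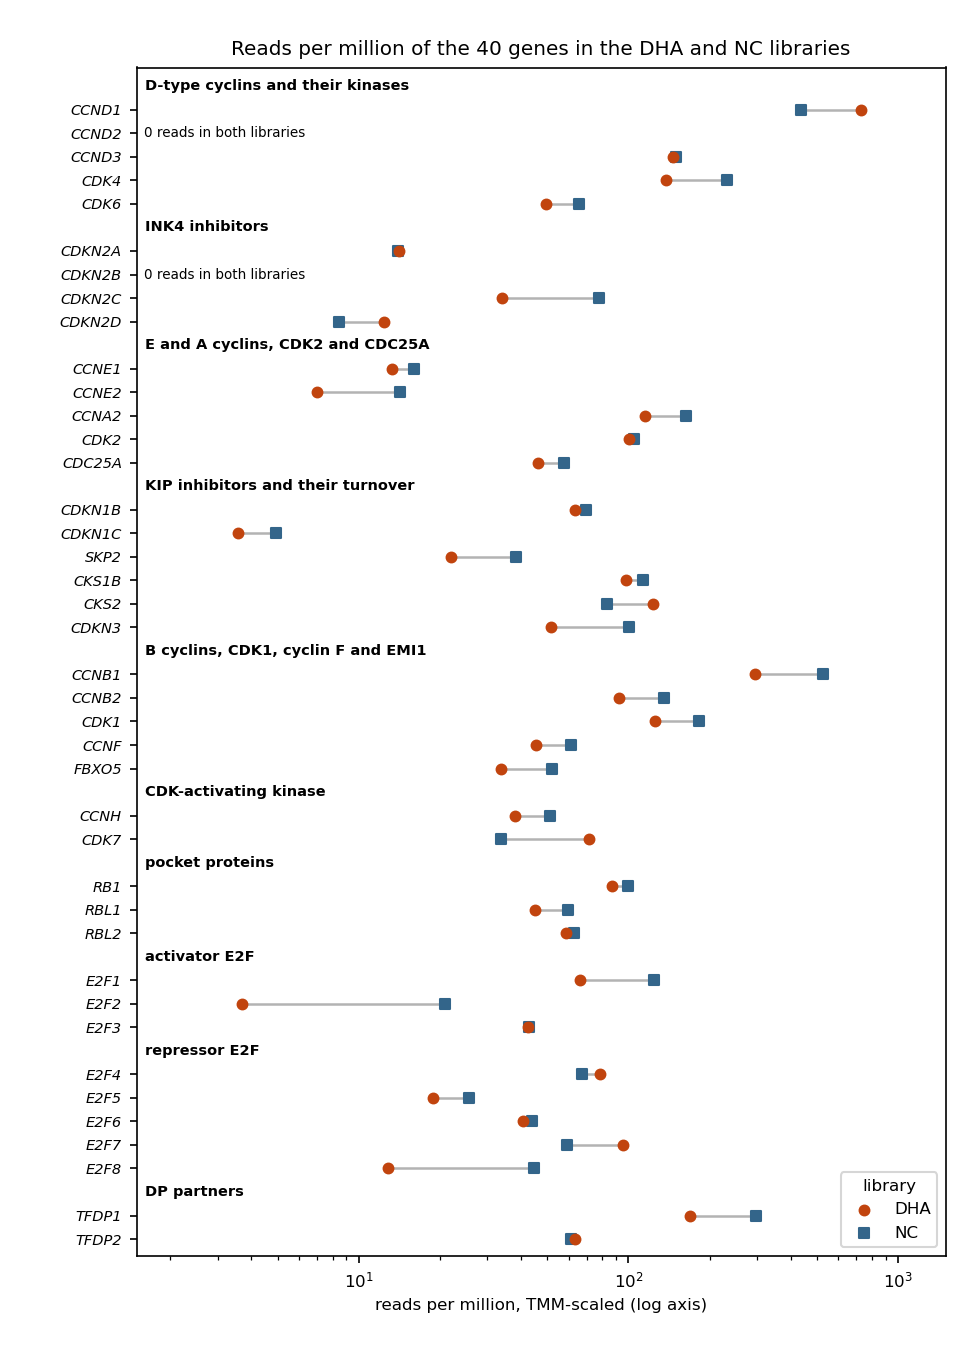
Level in CPM (TMM-scaled, log axis) of each of the 40 genes, grouped by role, with circles for the DHA library and squares for the NC library, 1 library each. CCND1, CKS2, CDK7, E2F7 and CDKN2D lie visibly higher in the DHA library, whereas E2F2, E2F8, CDKN2C and CCNE2 show the longest lines to lower values.

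**Figure D2:**
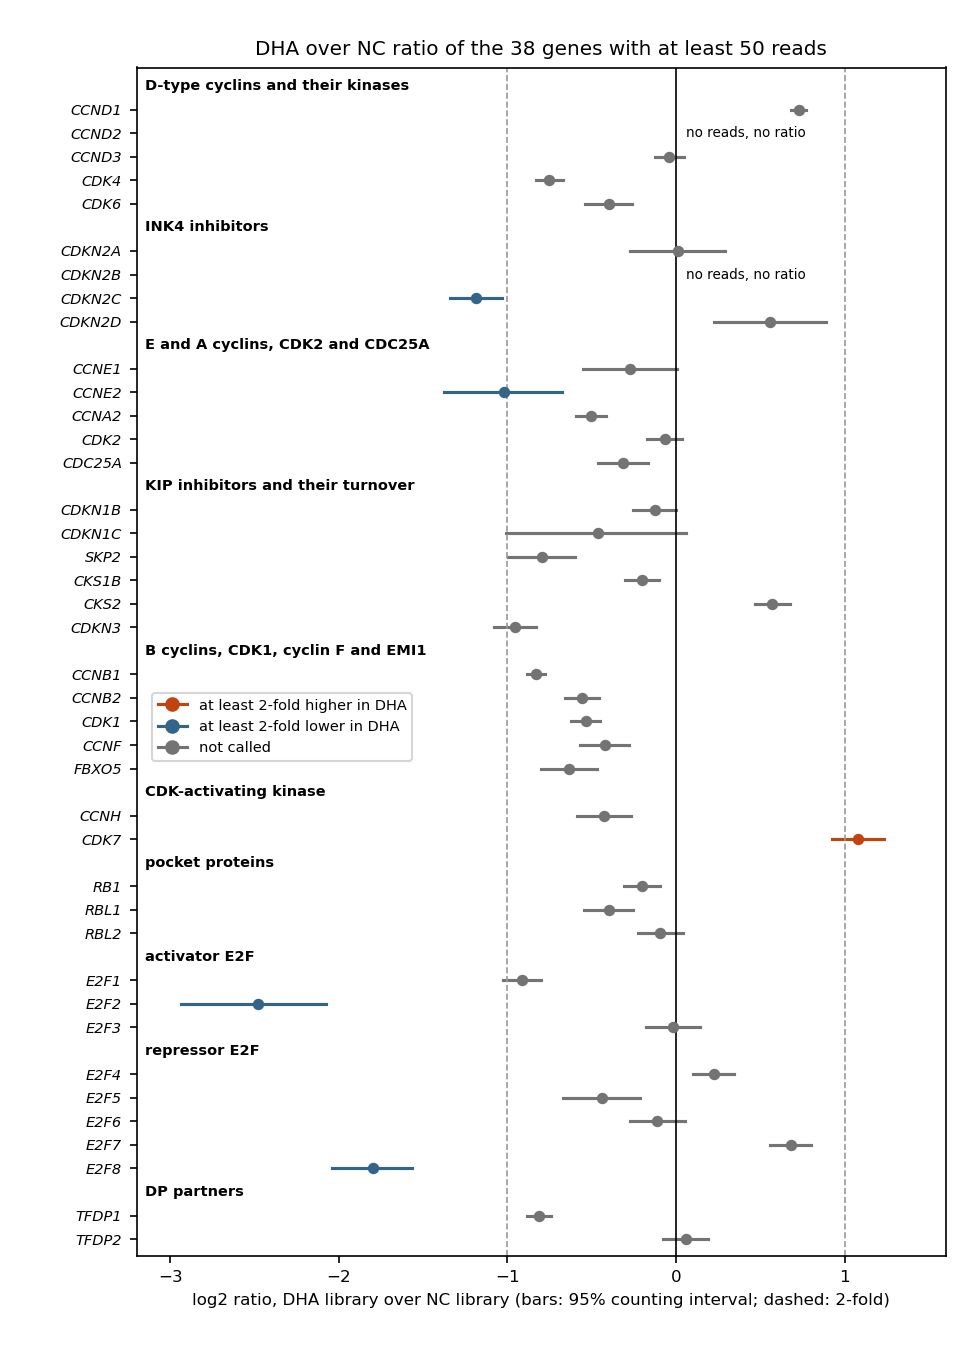
The log2 ratio of the DHA over the NC library for the 38 genes with at least 50 reads, with bars for the 95% counting interval and dashed lines at 2-fold. The 4 genes called lower have ratios from -2.48 to -1.02, and CDK7, the 1 gene called higher, has 1.08.

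Among D-type cyclins and their kinases, CCND1 had a ratio above 0 and CDK4 and CDK6 had ratios below 0. Of the 4 expressed genes, 0 passed 2-fold, beside 6.72% of all genes called higher and 10.3% called lower. CCND1 encodes cyclin D1, a mitogen-responsive cyclin (ENSG00000110092, chromosome 11, 69641087 to 69654474 on GRCh38, plus strand). It had 10573 reads in the DHA library, against 6739 in the NC library, which is 725 and 438 CPM. The DHA level was 1.66-fold higher, and its counting interval was 1.61 to 1.71, while 13.5% of all genes had a higher ratio. CCND3, which encodes cyclin D3, had 146 CPM (DHA) and 150 CPM (NC), and its interval held no difference (log2 ratio -0.04, -0.13 to 0.04). CCND2, the remaining D-type cyclin gene, had 0 reads in both libraries, which allows up to 0.206 CPM (DHA) and 0.195 CPM (NC). Per kilobase of gene length, CCND1 made up 85.7% of the D-type cyclin level in the DHA library and 77.8% in the NC library, with CCND3 as the rest.

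The kinase partners lay on the other side of 0 from CCND1. CDK4 had 138 CPM in the DHA library, against 232 CPM in the NC library, 1.68-fold lower (1.59 to 1.78). On the opposite strand, 43.2% of its exon length lies in exons of TSPAN31, which had 1076 reads (DHA) and 1264 reads (NC), and the labels do not state whether counting used strand. CDK6, a second kinase of D-type cyclins, had 49.5 CPM (DHA) and 65.3 CPM (NC), with a log2 ratio of -0.40. Per kilobase, the level of CDK4 was above that of CDK6 in both libraries, 43.4 against 4.04 CPM per kilobase in the DHA library and 73.2 against 5.33 in the NC library.

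The INK4 inhibitor genes had 1 member called lower, beside 10.3% of all genes, and their shares of the family level differed between the libraries. CDKN2C encodes p18-INK4C (ENSG00000123080, chromosome 1, 50960745 to 50974633, plus strand). It had 497 reads in the DHA library, against 1195 in the NC library, and was 2.28-fold lower (2.05 to 2.53). CDKN2D, which encodes p19-INK4D, had 181 reads (DHA) and 130 reads (NC), 1.47-fold higher (1.17 to 1.86), below the 2-fold rule. CDKN2A had 206 reads (DHA) and 216 reads (NC), with a log2 ratio of 0.01 (-0.27 to 0.29). This gene encodes both p16-INK4A and the p53 regulator ARF, and the gene-level counts do not separate their transcripts. CDKN2B, the neighbouring gene for p15-INK4B, had 0 reads in both libraries, and so did the antisense gene CDKN2B-AS1 at the same locus. Per kilobase, CDKN2C took 47.1% of the INK4 level in the DHA library and 72.5% in the NC library, and CDKN2D took 37.9% and 17.4%. CDKN2A made up the remaining 14.97% (DHA) and 10.05% (NC).

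**Figure D3:**
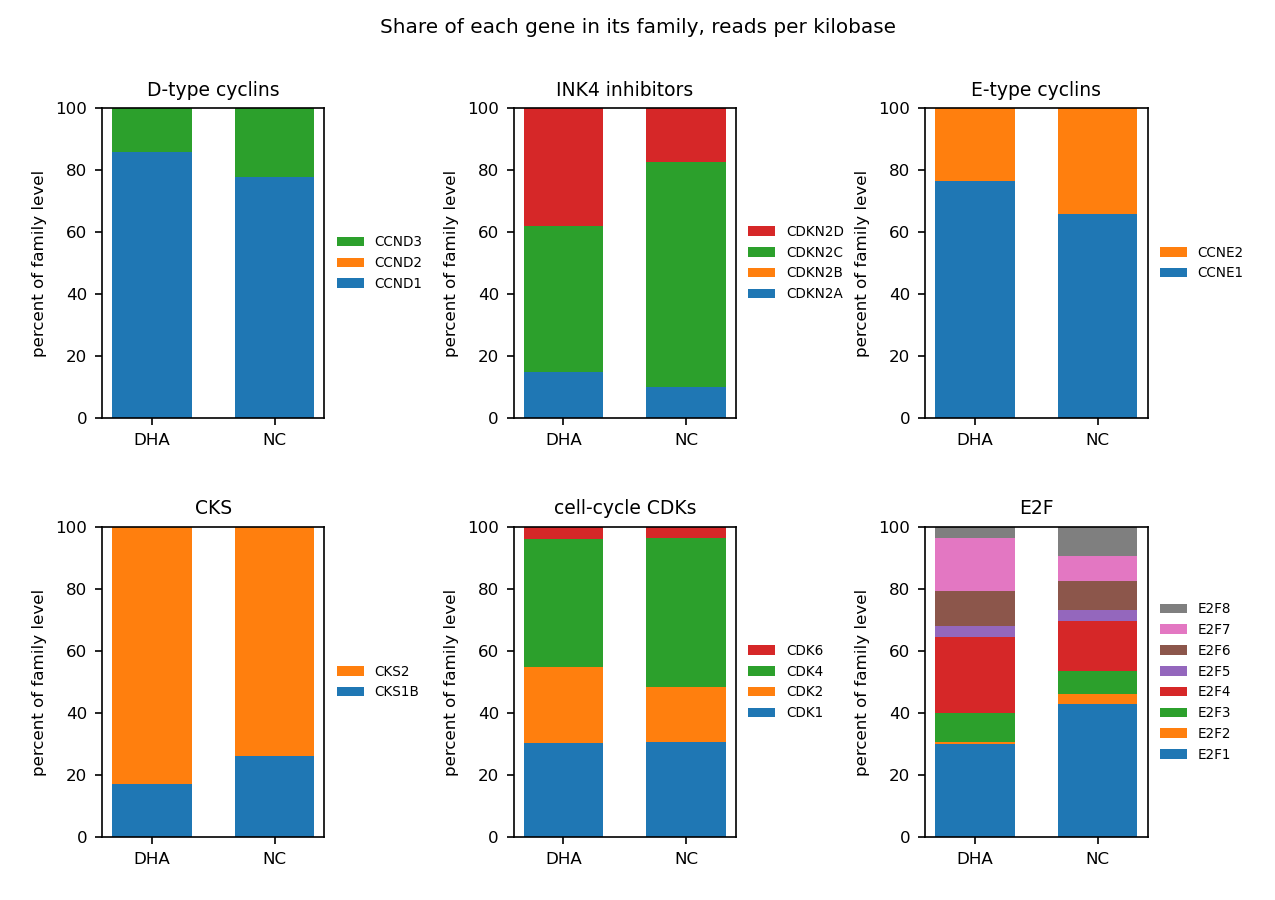
Share of each gene in the summed level of its family, in percent of reads per kilobase, for the DHA library (left bar) and the NC library (right bar), 1 library each. CDKN2D takes 37.9% of the INK4 level in DHA and 17.4% in NC, and E2F1 takes 29.8% of the E2F level in DHA and 42.9% in NC.

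CDK2, its cyclins and CDC25A had 1 of 5 genes called lower, beside 10.3% of all genes. All 5 had ratios below 0, against 47.8% of all genes, but the intervals of CCNE1 and CDK2 held 0. CCNE2, which encodes cyclin E2, a partner of CDK2 at S phase entry (ENSG00000175305, chromosome 8, 94879770 to 94896678, minus strand), gave 102 reads with DHA, against 219 with NC. It was 2.03-fold lower, with a wide interval on the log2 scale of -1.38 to -0.68. In CCNE2, 37.1% of the exon length is shared with genes on the opposite strand, among them INTS8, which had 1015 reads (DHA) and 1293 reads (NC). CCNE1, its paralog, had 193 reads (DHA) and 246 reads (NC), and its interval just held 0 (log2 ratio -0.27, -0.55 to 0.01). The counting intervals of the E-type cyclin ratios did not overlap, but this was not compared with other gene pairs. CCNE1 was the more abundant of the pair per kilobase, with 76.5% of their level in the DHA library and 65.95% in the NC library.

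CCNA2, the gene for the cyclin A of S and G2 phase, had 116 CPM (DHA) and 164 CPM (NC), 1.42-fold lower (1.33 to 1.51). CDK2 itself had 1459 reads in the DHA library and 1615 in the NC library, and its interval held no difference (log2 ratio -0.07, -0.17 to 0.04). CDC25A, which encodes the phosphatase that removes inhibitory phosphates from CDKs, had 46.2 CPM (DHA) and 57.4 CPM (NC), a log2 ratio of -0.31. The kinase thus had nearly equal levels in both libraries, and the cyclins A2 and E2 were lower in the DHA library.

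The group of KIP inhibitors, SKP2, the CKS subunits and CDKN3 had 0 of 6 genes called. The shares called over all genes were 6.72% higher and 10.3% lower. CDKN1B, which encodes p27-KIP1, had 926 reads (DHA) and 1067 reads (NC), with a log2 ratio of -0.13 and an interval that just held 0. CDKN1C, the gene for p57-KIP2, was the least covered of the expressed set with 52 reads (DHA) and 76 reads (NC), and its interval of -1.01 to 0.06 left both no difference and a 2-fold lower level possible at this depth. The other CIP/KIP gene, CDKN1A for p21, lies outside the 40 and was called higher, with 3354 reads (DHA) and 603 reads (NC) and a log2 ratio of 2.55. SKP2, the F-box protein that targets p27 for degradation, had 22.02 CPM (DHA) and 38.3 CPM (NC), 1.74-fold lower (1.51 to 1.997). CDKN3 encodes a phosphatase that dephosphorylates CDK2 and CDK1. It had 753 reads in the DHA library, against 1541 in the NC library, and lay just under the rule at 1.94-fold lower (1.77 to 2.12). With upper-quartile scaling its log2 ratio was -1.02 and it was called.

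The CKS proteins are small CDK subunits, and CKS1B is also a cofactor of SKP2. Their genes differed in direction. CKS2 had 1804 reads in the DHA library, against 1283 in the NC library, 1.48-fold higher (1.38 to 1.596). CKS1B had 1431 reads (DHA) and 1740 reads (NC), 1.15-fold lower (1.07 to 1.24), and the 2 counting intervals did not overlap. How often this occurs in other gene pairs was not counted. CKS2 is the shorter gene, and after correction for gene length and GC its log2 ratio was 0.85 in place of 0.57. Of 20 annotated pseudogenes named after members, 14 had 0 reads in both libraries and 2 reached 10 reads in a library. Both are copies of CKS1B, CKS1BP3 with 39 reads (DHA) and 52 reads (NC) and CKS1BP2 with 14 reads (DHA) and 2 reads (NC). Reads shared between such copies make the value of CKS1B less certain. Per kilobase, CKS2 made up 82.8% of the CKS level in the DHA library and 73.8% in the NC library. These shares depend on the annotated exon lengths, 613 bases for CKS2 and 2338 for CKS1B. In reads, CKS1B was the higher of the pair in the NC library.

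The genes for B cyclins, CDK1, cyclin F and EMI1 all had intervals wholly below 0, and 0 of 5 passed 2-fold. Of all 12064 genes, 4288 had intervals wholly below 0 and 10.3% were called lower. CCNB1, the gene for the mitotic cyclin B1 (ENSG00000134057, chromosome 5, 69167010 to 69178245, plus strand), had 4302 reads in the DHA library, against 8065 in the NC library. It was 1.77-fold lower (1.71 to 1.84). Its level per kilobase was the highest of the 40 genes in the NC library, 205 CPM per kilobase, against 115 in the DHA library. The highest in the DHA library was CKS2 at 202, over an annotated exon length of 613 bases. CCNB2 had 91.9 CPM (DHA) and 135 CPM (NC), and its kinase partner CDK1 had 126 CPM (DHA) and 182 CPM (NC). Their ratios were close, at -0.56 and -0.54 on the log2 scale, with overlapping intervals. FBXO5 encodes EMI1, an inhibitor of the anaphase-promoting complex, and had 490 reads (DHA) and 803 reads (NC), 1.55-fold lower (1.39 to 1.74). CCNF, which encodes the F-box protein cyclin F, had 664 reads (DHA) and 941 reads (NC), 1.34-fold lower (1.21 to 1.48).

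CDK7 was the 1 member called higher. It encodes the catalytic subunit of the CDK-activating kinase, which phosphorylates other CDKs and, as part of the general transcription factor TFIIH, RNA polymerase II (ENSG00000134058, chromosome 5, 69234795 to 69277430, plus strand). It had 1036 reads in the DHA library, against 517 in the NC library, 2.12-fold higher (1.90 to 2.36), and 5.45% of all genes had a higher ratio. Its cyclin partner gene CCNH had 555 reads (DHA) and 788 reads (NC), 1.34-fold lower (1.204 to 1.501). On the opposite strand, 22.3% of the exon length of CCNH is shared with other genes, among them RASA1, which had 1032 reads (DHA) and 681 reads (NC). MNAT1, the assembly factor of the complex, was chosen after its value was seen, and had 389 reads (DHA) and 299 reads (NC), a log2 ratio of 0.46. The 3 subunit genes thus had unequal ratios. Per kilobase, CDK7 had 29.4 CPM per kilobase in the DHA library and 13.9 in the NC library, and CCNH had 6.27 and 8.43.

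The pocket protein genes, which encode the repressors that bind E2F, had small ratios. RB1 had 1264 reads (DHA) and 1534 reads (NC), 1.15-fold lower (1.07 to 1.24). RBL1, the gene for p107, had 657 reads (DHA) and 916 reads (NC), 1.32-fold lower (1.19 to 1.46). RBL2, the gene for p130, a pocket protein of resting cells, had 856 reads (DHA) and 964 reads (NC), and its interval held no difference (log2 ratio -0.09, -0.23 to 0.04). On the opposite strand, 18.2% of the exon length of RBL2 is shared with other genes, among them AKTIP with 634 reads (DHA) and 514 reads (NC). The pocket protein genes had like shares of their summed level per kilobase in both libraries, with RB1 at 46.3% (DHA) and 45.4% (NC).

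The E2F genes had the widest range of ratios in the set. E2F2, an activator of S phase genes (ENSG00000007968, chromosome 1, 23506430 to 23531220, minus strand), gave 54 reads with DHA, against 321 with NC. It was 5.59-fold lower (4.21 to 7.66), and 1.66% of all genes had a lower ratio. E2F1, the activator most closely tied to S phase entry (ENSG00000101412, chromosome 20, 33675683 to 33686404, minus strand), had 962 reads (DHA) and 1913 reads (NC), 1.88-fold lower (1.74 to 2.04), just under the rule. E2F3, the other activator, had 617 reads (DHA) and 660 reads (NC), and its interval held no difference (log2 ratio -0.02, -0.18 to 0.14). The 3 activators thus spanned ratios from -2.48 to -0.02, and the intervals of their ratios did not overlap. These intervals cover counting error only, and the ratios of all genes ran from -1.52 (5th percentile) to 1.11 (95th percentile). How often the intervals of other genes fail to overlap was not counted.

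E2F7 and E2F8 are the atypical E2Fs, repressors that bind DNA without a DP partner, and they lay on opposite sides of 0. E2F8 (ENSG00000129173, chromosome 11, 19224063 to 19241620, minus strand) gave 187 reads with DHA, against 688 with NC, 3.48-fold lower (2.96 to 4.12). E2F7 (ENSG00000165891, chromosome 12, 77021247 to 77065580, minus strand) had 1388 reads (DHA) and 914 reads (NC), 1.604-fold higher (1.47 to 1.75). Only E2F8 of this pair passed 2-fold. E2F4, a repressor that works with p107 and p130, had 1139 reads (DHA) and 1031 reads (NC), 1.17-fold higher (1.07 to 1.27). E2F5, its close relative, had 274 reads (DHA) and 393 reads (NC), 1.36-fold lower (1.16 to 1.59), with 18.6% of its exon length shared on the opposite strand. E2F6, a repressor found in Polycomb complexes, had 590 reads (DHA) and 673 reads (NC), with an interval that held no difference (log2 ratio -0.11, -0.27 to 0.05).

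The DP partner genes also differed. TFDP1, the more abundant of the pair, had 2457 reads in the DHA library, against 4565 in the NC library, 1.76-fold lower (1.67 to 1.85). TFDP2 had 926 reads (DHA) and 940 reads (NC), with a log2 ratio of 0.06 (-0.08 to 0.19). Per kilobase, E2F1 to E2F3 together made up 39.9% of the E2F level in the DHA library and 53.4% in the NC library. E2F4 to E2F6 took 39.5% (DHA) and 29.2% (NC), with E2F4 alone at 24.7% and 16.2%. E2F7 and E2F8 together took 20.6% (DHA) and 17.5% (NC), but E2F7 took 17.1% and 8.14%, and E2F8 3.51% and 9.33%. E2F1 had the largest share per kilobase in both libraries, at 29.8% (DHA) and 42.9% (NC). In reads, E2F1 was also highest in the NC library (1913). In the DHA library, E2F7 (1388 reads) and E2F4 (1139 reads) were above E2F1 (962 reads), so the order there depends on the gene lengths used.

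Promoter sequences of 33 members were found in RefSeq windows of GRCh38.p14 that run from 250 bases before to 50 bases after a transcript start. CCNE2, CCND1, CCND2, CDK2, CDKN1C, E2F8 and E2F5 had none there. E2F letters (TTTCCCGC, TTTGGCGC, TTTCGCGC or TTTGCCGC), the cell cycle homology region (CHR, TTTGAA or TTCGAA) and the CCAAT box (CCAAT) were searched on both strands. In the windows of members, 0 matches of different motifs overlapped. E2F letters were found in CDC25A, CDK1, E2F1, E2F2, E2F3, RBL1 and TFDP1, which is 7 of 33 (21.2%), against 6.89% of the genes with at least 50 reads and 3.99% of all genes with a window. CHR and CCAAT letters together were found in 8 of 33 (24.2%), against 6.62% and 7.85%. Those 8 were CCNB2, CCNF, CDK1, CDKN3, CKS1B, CKS2, E2F3 and FBXO5. A match is a description of the letters and not a binding site.

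The bases from 120 to 1 before the start are shown for 3 E2F genes that differed in direction, with matches in capitals. They cover chr20:33686386-33686505 (E2F1), chr1:23531234-23531353 (E2F2) and chr12:77065570-77065689 (E2F7), all on the minus strand.
E2F1: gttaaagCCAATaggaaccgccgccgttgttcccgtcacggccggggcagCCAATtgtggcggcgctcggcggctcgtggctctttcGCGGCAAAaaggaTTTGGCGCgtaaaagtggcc
E2F2: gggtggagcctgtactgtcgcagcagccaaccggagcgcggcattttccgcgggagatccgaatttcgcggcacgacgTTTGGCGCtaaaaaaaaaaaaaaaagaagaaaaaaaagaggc
E2F7: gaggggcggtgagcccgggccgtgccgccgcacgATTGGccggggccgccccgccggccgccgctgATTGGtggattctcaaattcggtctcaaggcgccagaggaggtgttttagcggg
E2F1 and E2F2, both lower in the DHA library, hold E2F letters within 50 bases of the start, on either strand for E2F1. E2F7, higher in the DHA library, holds CCAAT letters in reverse (ATTGG) and none of the 4 E2F spellings in its window. E2F3 also holds E2F letters, with a log2 ratio of -0.02, and CDKN2C, called lower (-1.19), holds none. Whether the letters go with the direction of the ratio was not tested.

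The same stretch is shown for the CKS pair, which differed in direction, and for CDK7, the 1 member called higher. They cover chr1:154974561-154974680 (CKS1B), chr9:89311075-89311194 (CKS2) and chr5:69234675-69234794 (CDK7), all on the plus strand.
CKS1B: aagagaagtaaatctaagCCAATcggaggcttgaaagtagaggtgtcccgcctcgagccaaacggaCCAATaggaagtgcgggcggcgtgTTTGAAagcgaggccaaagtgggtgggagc
CKS2: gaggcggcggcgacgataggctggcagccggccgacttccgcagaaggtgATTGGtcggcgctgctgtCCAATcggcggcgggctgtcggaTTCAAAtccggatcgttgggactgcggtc
CDK7: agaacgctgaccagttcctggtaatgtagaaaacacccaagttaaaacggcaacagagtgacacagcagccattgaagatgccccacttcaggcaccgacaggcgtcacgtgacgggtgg
CKS1B and CKS2 both hold CCAAT letters followed by a CHR close to the start, on the reverse strand (TTCAAA) in CKS2, so the letters searched do not separate the pair. CDK7 held none of the letters in either of its windows. Over the 9206 genes with at least 50 reads and a window, the median log2 ratio was 0.02 for the 634 with E2F letters and 0.05 for the 8572 without. Among the 32 members in that group, it was -0.54 for the 7 with E2F letters and -0.20 for the 25 without.

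Other genes of the pathway were counted in 5 lists. Of 23 E2F target genes of S phase, 13 were called lower and 0 higher, and all 23 had intervals wholly below 0, with a median log2 ratio of -1.21. Over all 12064 genes, 10.3% were called lower and 4288 had intervals wholly below 0. Led by MCM3, MCM6 and MCM2, subunits of the replicative helicase, and UHRF1, which reads hemimethylated DNA, the 4 lowest were 3.74-, 3.33-, 3.24- and 3.16-fold lower. In MCM2, 23.6% of the exon length is shared with genes on the opposite strand. UHRF1 had 579 reads in the DHA library, against 1931 in the NC library. This list overlaps replication genes whose lower level in these libraries was already known when it was drawn up. Its median lay below that of the 40 genes (-0.40) and of all genes (0.04).

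Of 7 measured genes for the MuvB complex, MYB factors and FOXM1, which regulate cell-cycle promoters, 1 was called lower, beside 10.3% of all genes. That was RBBP4, a histone-binding subunit shared by several chromatin complexes, with 1824 reads (DHA) and 4526 reads (NC), 2.35-fold lower (2.22 to 2.48). Of its exon length, 18.0% is shared with SYNC on the opposite strand. The DNA-binding subunit gene LIN54 had a log2 ratio of 0.60, MYBL2, for the B-MYB activator, -0.58, and LIN9 -0.42. The list had a median of -0.23. SCF and APC/C subunits, the ubiquitin ligases of the cycle, had 0 of 23 genes called in either direction and a median of 0.07. Over all genes, 6.72% were called higher and 10.3% lower. ANAPC5 and ANAPC10 both had -0.71, and the F-box genes BTRC and FBXW7 had 0.70 and 0.64. FBXW7 targets cyclin E for degradation.

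Among 8 measured genes of the other cell-cycle cyclins and CDK regulators, CDKN1A and CCNG2 were called higher and PKMYT1 lower. The shares over all genes were 6.72% higher and 10.3% lower. CCNG2, which encodes a cyclin associated with growth arrest, had 746 reads (DHA) and 390 reads (NC), 2.02-fold higher (1.78 to 2.29). It was under 2-fold with DESeq2 size factors (0.97), upper-quartile scaling (0.95) and correction for gene length and GC (0.97). PKMYT1, the inhibitory kinase of CDK1, had 260 reads (DHA) and 580 reads (NC), 2.11-fold lower (1.82 to 2.45), with 31.6% of its exon length shared on the opposite strand. CCNG1 had a log2 ratio of -0.74, so the G-type cyclins lay on opposite sides of 0.

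Transcriptional and atypical cyclins and CDKs had 1 of 25 genes called higher and 1 called lower, with a median of 0.33. CDK18 had 37 reads in the DHA library, against 207 in the NC library, 5.24-fold lower (3.72 to 7.73). CCNJ had 549 reads (DHA) and 285 reads (NC), 2.03-fold higher (1.76 to 2.36), but was under 2-fold with DESeq2 size factors (0.98) and upper-quartile scaling (0.96). CDK17 had a log2 ratio of 0.96, and CCNK, whose product partners the RNA polymerase II kinases CDK12 and CDK13, had 0.90. In CCNK, 59.5% of the exon length is shared with CCDC85C on the opposite strand. This list leaned to the higher side, with 17 of 25 ratios above 0, whereas 8 of the 38 cell-cycle members and 6299 of all 12064 genes lay there. Its share of calls can be read against 6.72% of all genes called higher and 10.3% called lower.

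**Figure D4:**
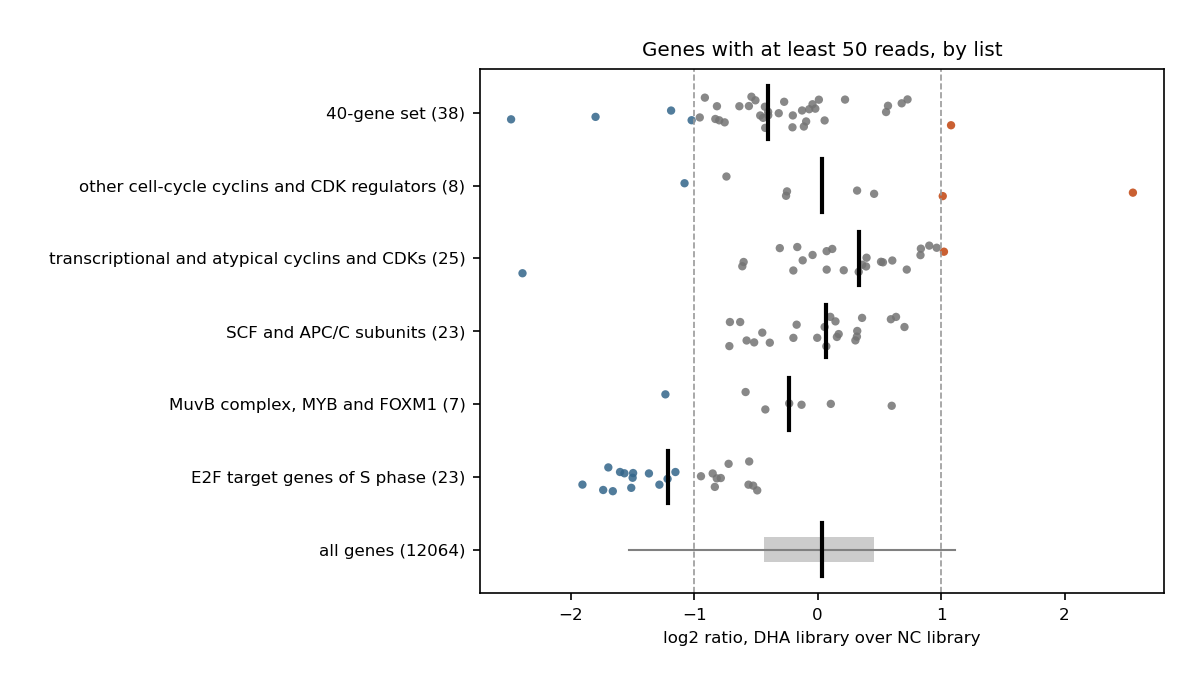
The log2 ratio of the DHA over the NC library for genes with at least 50 reads in the 40-gene set and in 5 pathway lists, with 1 point per gene, blue for called lower and orange for called higher, and a black bar at the median. The bottom row gives all 12064 genes, with a box from the 25th to the 75th and a line from the 5th to the 95th percentile. The E2F target list lies farthest to the left with a median of -1.21. That list overlaps replication genes whose lower level was already known when it was drawn up.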

How the data were processed

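The authors deposited whole-number read counts per gene for the DHA and NC libraries, with no normalization, and gene lengths in bases, per the file headers. The submitters' processing notes list the mouse build mm8, but all 58735 rows had the identifiers, coordinates and exon-union lengths of GENCODE release 29 on human GRCh38. Aligner, counting tool and use of strand: not given in the sources used here. Libraries were assigned by their treatment labels. Counts were scaled by TMM (edgeR 4.0.16, R 4.3.3; factors 1.00 for DHA and 0.996 for NC), and 0.5 reads were added before the ratio. Counting intervals are exact Clopper-Pearson intervals (scipy 1.17.1), and had a median half-width of 0.14 on the log2 scale over the 38 members. A count of 0 allows up to 3 reads. With 1 library per group no p-value was computed. Shares within a family used reads per kilobase of exon-union length, so comparisons between genes depend on that length. The size rule was tested on simulated data with counting error only and changes larger than 2-fold. That does not cover differences between cultures or genes near 2-fold. The members and lists were chosen with earlier results of these data known. The genes named outside the 40 are CDKN1A and, per list, the 4 with at least 50 reads farthest from a log2 ratio of 0. MNAT1 and the overlapping genes were added after values were seen. Alternatives included DESeq2 1.42.0 size factors, total reads, the upper quartile, other read minimums, fold thresholds and intervals.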

Additional observations from a re-analysis of the deposited data

How the results depend on the processing

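No paired analysis was possible because each group has 1 library, and for the same reason no library could be left out. The calls of E2F2, E2F8, CDKN2C, CCNE2 and CDK7 held under every scaling, read minimum and pseudocount tried. CCNE2 was not among the genes kept when those with over 25% of exon length shared on the opposite strand were left out. CDKN3 passed 2-fold lower with upper-quartile scaling (-1.02). At 1.5-fold, 3 members were higher and 11 lower, and at 3-fold 0 and 2. Over all genes the counts were 2284 and 2320 at 1.5-fold, 219 and 556 at 3-fold, 1297 and 2126 with a minimum of 10 reads, and 1432 and 2386 with no minimum. With a minimum of 200 reads, 688 of all genes were lower. Over the 5 pathway lists, 3 genes were higher and 16 lower, against 13 and 28 at 1.5-fold and 1 and 6 at 3-fold, and 1 was higher with DESeq2 size factors or upper-quartile scaling. The threshold or minimum itself sets these counts, and the cause of the scaling differences was not tested. Correction for gene length and GC and the exclusion of genes with shared exons were chosen after the data were seen. Among the 38 members with at least 50 reads, counting intervals were widest for CDKN1C and E2F2.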
